A study of Mus musculus with 31 samples.

Results

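Solute carriers are membrane proteins that move sugars, amino acids, monocarboxylates, ions and metabolites across the plasma membrane and across the membranes of organelles, and their genes carry the symbol Slc with a family number. The Slc25 family sits in the inner mitochondrial membrane and exchanges nucleotides, phosphate and metabolites with the cytosol. The retina depends on such carriers because photoreceptors consume much glucose and release lactate, neurons recycle glutamate and taurine, and inhibitory signalling rests on chloride gradients.

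The genes described here are those whose annotated symbol starts with Slc followed by a digit and whose probe had a detection p under 0.05 on at least 6 arrays, leaving out Slc1a3, Slc2a1, Slc5a7, Slc6a8, Slc6a9, Slc7a11, Slc17a7, Slc18a3, Slc24a1 and Slc32a1. They are 293 probes of 222 genes, of 16743 probes and 11172 genes kept in all. The array held 464 such probes of 316 genes, so that 171 probes were not kept, 123 of them detected on 0 arrays, and 94 genes had no kept probe. Of the 293 probes, 216 were detected on all 31 arrays. Just inside the threshold were 1 probe each of Slc11a1 and Slc5a11, detected on 6 arrays with mean levels of 4.79 and 4.78 on the log2 scale. Just outside it were probes of Slc17a2, Slc22a18, Slc25a27, Slc45a2 and Slc5a1, detected on 5 arrays with mean levels of 4.56 to 4.76.

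The samples were whole retinas of C57BL/6J mice, a common inbred strain, on 31 Illumina BeadChip arrays. The groups were 9 arrays of Ins2Akita mice (genotype Ins2Akita/Ins2, 1 copy of a dominant insulin gene mutation that leads to loss of pancreatic beta cells), 6 of mice made diabetic with streptozotocin (STZ), a toxin of beta cells, 8 of untreated mice (Control) and 8 of wild-type mice (WT, genotype Ins2/Ins2). Retinas were taken after 3 months of hyperglycaemia according to the series' design text. The labels state neither age nor sex nor any pooling, and do not say that arrays of a group were of different animals. The p-values therefore rest on the spread between these samples alone, which may be technical.

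The arrays of a group were hybridised on 1 BeadChip that held no other group, with the exception of Ins2Akita replicate 9, which was on the STZ chip, and chip and group therefore cannot be told apart. Detected probes numbered 15395 to 16460 per Ins2Akita array, 15074 to 15816 per STZ array, 15226 to 15650 per Control array and 14581 to 15469 per WT array. The tissue was checked against rod photoreceptor markers: 7 of 8 had a kept probe, each detected on all 31 arrays, and rhodopsin had no kept probe. Genes of neighbouring eye tissues varied between arrays within every group. A score made of 11 retinal pigment epithelium and melanocyte genes, none of them a solute carrier, ranged from -1.75 to 1.92 on the log2 scale over the arrays, and a lens score from -3.38 to 4.81. In whole tissue, fewer cells of a type and less RNA per cell cannot be told apart.

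By substrate, 41 genes were carriers of amino acids and peptides, 33 of inorganic ions, 22 of metal ions, 12 of sugars and polyols and 8 of monocarboxylates. A further 32 were mitochondrial Slc25 carriers, 22 were nucleotide sugar carriers and their relatives of the Slc35 family, 48 carried other substrates, and 4 symbols (Slc4a1ap, Slc7a6os, Slc9a3r1 and Slc9a3r2) belong to proteins named after a carrier. A change is given as the difference of group means on the log2 scale, a rise or fall is stated where the adjusted p of limma, over all 16743 probes, was under 0.05, and a gene with several probes is counted in its class by its brightest probe.

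**Figure D1:**
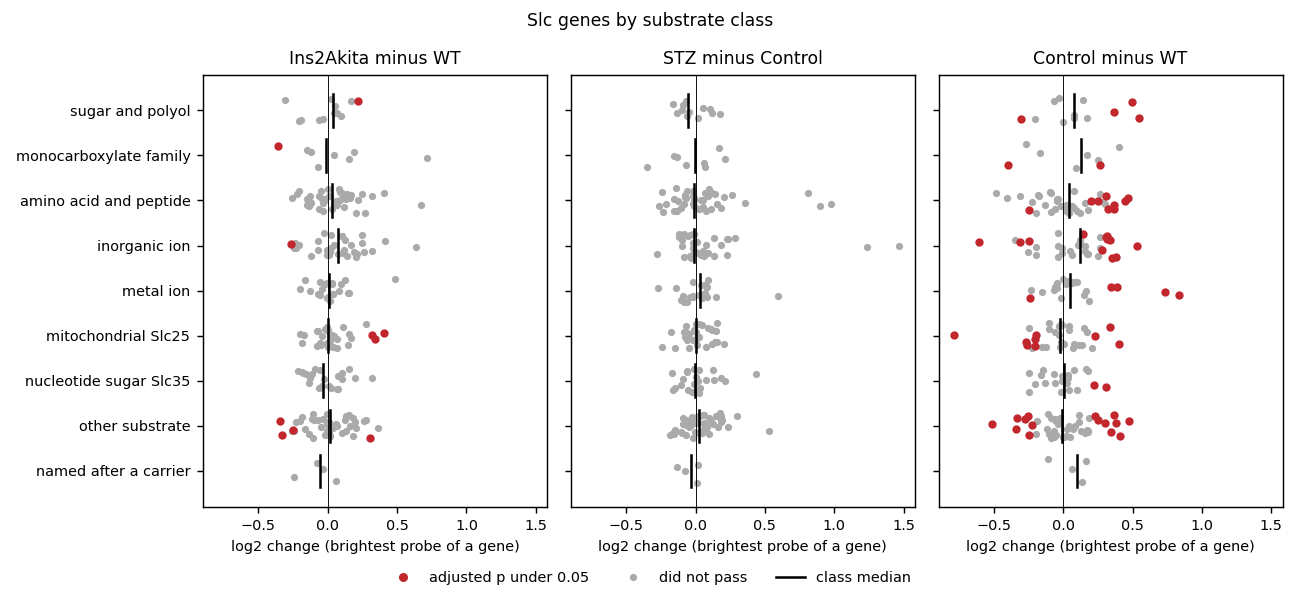
Log2 change of the 222 genes (x axis, brightest probe of each gene) by substrate class (y axis) in Ins2Akita minus WT, STZ minus Control and Control minus WT. Red points passed an adjusted p of 0.05, grey points did not, and black bars are class medians. In Ins2Akita minus WT 10 genes are red, in STZ minus Control 0 and in Control minus WT 58. The class medians run from -0.06 to 0.07 in Ins2Akita minus WT, -0.05 to 0.03 in STZ minus Control and -0.02 to 0.13 in Control minus WT.

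Ins2Akita retinas were compared with WT retinas for the effect of the mutation and its diabetes. In Ins2Akita retinas the transcripts of a pair of abundant carriers of mitochondrial ATP synthesis, Slc25a3 (on 1 of its 2 probes) and Slc25a5, rose 1.27-fold and 1.25-fold, and that of the neutral amino acid transporter Slc38a2 rose 1.35-fold on 1 of its 3 probes. Slc25a30 and the myo-inositol transporter gene Slc2a13 also rose. The lactate exporter gene Slc16a3, the urea transporter gene Slc14a1 (on 1 of its 3 probes) and the sodium chloride cotransporter gene Slc12a3 fell. The calls of Slc16a3 and Slc14a1 were lost when certain single arrays were left out. In all, 13 of the 293 probes (4.44%) were called against 4.16% of all probes tested, 6 higher (1.76% of all probes) and 7 lower (2.4%), and at an unadjusted p under 0.05 the counts were 57 of 293 (19.5%) against 19.2%. The share of calls among solute carriers was therefore close to that of the whole array. Called changes were 0.22 to 0.43 in size, and 0 of them exceeded 1.5-fold. Of the 13 called probes, 7 were also called in the same direction in Control minus WT, and 0 in the opposite direction. Control minus WT, which uses the same WT arrays, called 24.6% of the 293 probes and 22.2% of all probes.

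Upstream sequences are shown to give the context of the transcripts the results turn on. They belong to Slc25a3, Slc25a5 and Slc38a2, which kept their Ins2Akita call under every alternative run, and to Slc5a8, which leads the STZ comparison. Each is the 150 bases before the RefSeq start site in build GRCm38.p6, 5′ to 3′ on the strand of the gene, with capitals on any match, on either strand, of the TATA box letters TATAA, the CCAAT box, the GC box letters GGGCGG, the letters TGACG of the cyclic AMP response element, and the E-box letters CACGTG.
Slc25a3: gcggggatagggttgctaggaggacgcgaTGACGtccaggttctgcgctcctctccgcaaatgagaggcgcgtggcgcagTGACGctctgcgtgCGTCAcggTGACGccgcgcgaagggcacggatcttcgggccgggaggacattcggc
Slc25a5: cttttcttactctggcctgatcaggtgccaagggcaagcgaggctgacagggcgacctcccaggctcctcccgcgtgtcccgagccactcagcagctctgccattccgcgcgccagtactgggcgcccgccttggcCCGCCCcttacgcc
Slc38a2: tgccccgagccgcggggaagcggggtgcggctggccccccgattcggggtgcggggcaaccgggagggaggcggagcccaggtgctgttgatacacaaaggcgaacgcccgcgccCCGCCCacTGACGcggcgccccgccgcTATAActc
Slc5a8: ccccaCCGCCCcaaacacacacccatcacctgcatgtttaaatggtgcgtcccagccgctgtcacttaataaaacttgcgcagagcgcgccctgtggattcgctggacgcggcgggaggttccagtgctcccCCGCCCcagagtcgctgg
The windows are chr10:91123968-91124117 (minus strand) for Slc25a3, chrX:36795447-36795596 (plus) for Slc25a5, chr15:96699729-96699878 (minus) for Slc38a2 and chr10:88885842-88885991 (plus) for Slc5a8. TGACG matched 4 times in Slc25a3 and 1 time in Slc38a2, and 13.3% of 32851 promoter windows of that length hold it. GGGCGG matched in Slc25a5 and Slc38a2 (1 time each) and in Slc5a8 (2 times), against 28.6% of windows, and TATAA matched in Slc38a2, against 14.2%. CCAAT (24.5% of windows) and CACGTG (4.3%) matched in none of the 4, and a match is a description of the letters only.

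Among mitochondrial carriers, 3 of 32 genes rose and 0 fell (9.38%, against 4.37% of all genes called on the brightest probe), and the median change over the 32 was 0.00. Slc25a3, the phosphate carrier of the inner membrane, was at 12.29, 12.43 and 12.72 (lowest, median and highest array) in Ins2Akita retinas, against 12.01, 12.09 and 12.28 in WT retinas. The groups did not overlap, which held for 2 of the 293 probes (0.683%) and for 0.46% of all probes. The change was 0.34 (SE 0.06, 95% interval 0.21 to 0.47, adjusted p = 0.00355). The other Slc25a3 probe did not show it, with a change of -0.07 (adjusted p = 0.573). Both Slc25a3 probes were also called higher in Control than in WT retinas. Slc25a5, the adenine nucleotide translocase that exchanges ATP for ADP in most tissues, was at 12.80, 12.99 and 13.06 in Ins2Akita retinas, against 12.54, 12.63 and 12.80 in WT retinas. Its change was 0.32 (SE 0.06, adjusted p = 0.0053) on its only kept probe, and the groups touched at their edges. Slc25a5 was also higher in Control than in WT retinas, by 0.34. Slc25a5 has close relatives within its family, and whether its probe also binds them was not tested. Slc25a30, a mitochondrial carrier of the same family, was at 5.13, 5.34 and 5.70 in Ins2Akita retinas, against 4.45, 5.08 and 5.25 in WT retinas, a change of 0.41 (SE 0.10, adjusted p = 0.0186). It was detected on all 9 Ins2Akita arrays and on 5 of 8 WT arrays, and with the series matrix values its change was 0.05 (adjusted p = 0.661).

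Among amino acid and peptide carriers, 0 of 41 genes passed on the brightest probe, with a median of 0.03. The call of Slc38a2, a sodium-coupled transporter of small neutral amino acids, came from another of its probes, at 10.23, 10.64 and 10.81 in Ins2Akita retinas, against 9.94, 10.08 and 10.28 in WT retinas. All but 1 of the 9 Ins2Akita arrays lay above the highest WT array. In Control minus WT that probe changed by 0.26 (adjusted p = 0.0572) with scores of neighbouring eye tissues added to the fit. The change on that probe was 0.43 (SE 0.09, adjusted p = 0.00612), and on the brightest and the dimmest probe it was 0.17 (adjusted p = 0.425) and -0.04 (adjusted p = 0.873). The smallest p of the class on a brightest probe belonged to Slc1a1, the neuronal glutamate transporter, with a change of 0.27 (adjusted p = 0.101). Slc6a6, the taurine transporter, was at 13.95, 14.06 and 14.15 in Ins2Akita retinas, against 13.75, 13.97 and 14.13 in WT retinas, a change of 0.11 (adjusted p = 0.261).

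Of the 12 sugar and polyol carriers, 1 rose and 0 fell, with a median of 0.03. Slc2a13, the proton-coupled myo-inositol transporter, was at 9.18, 9.31 and 9.45 in Ins2Akita retinas, against 8.83, 9.09 and 9.22 in WT retinas. The change was 0.22 (SE 0.06, adjusted p = 0.0221), and the ranges met only between 9.18 and 9.22. Slc2a13 was also called higher in Control than in WT retinas. Slc2a3, the neuronal glucose transporter, did not pass, at 10.19, 10.26 and 10.41 in Ins2Akita retinas and 9.95, 10.04 and 10.49 in WT retinas (change 0.17, 95% interval 0.01 to 0.32, adjusted p = 0.209). Of the 8 monocarboxylate carriers, 1 fell and 0 rose. Slc16a3, a proton-coupled exporter of lactate from glycolytic cells, fell on both of its probes, by 0.34 (SE 0.09, adjusted p = 0.0323) and by 0.36 (SE 0.10, adjusted p = 0.041) on the log2 scale. On the probe with the smaller p it was at 4.76, 5.02 and 5.30 in Ins2Akita retinas, against 5.14, 5.35 and 5.60 in WT retinas, and it was detected on 7 of 9 Ins2Akita arrays and 8 of 8 WT arrays. It was the only gene of 5 with a call and several probes whose probes were all called. Slc16a3 was also called lower in Control than in WT retinas, on its brightest probe.

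Among inorganic ion carriers, 1 of 33 fell and 0 rose, with a median of 0.07. That gene was Slc12a3, the thiazide-sensitive sodium chloride cotransporter, at 7.52, 7.69 and 7.83 in Ins2Akita retinas, against 7.66, 7.98 and 8.08 in WT retinas (change -0.26, SE 0.07, adjusted p = 0.0233). Among the 48 carriers of other substrates, 1 rose and 3 fell, with a median of 0.01. Slc14a1, which carries urea, was at 5.66, 5.99 and 6.06 in Ins2Akita retinas, against 6.10, 6.19 and 6.54 in WT retinas, without overlap (change -0.33, SE 0.09, adjusted p = 0.0263). Its other 2 probes gave 0.03 and 0.07. Slc14a1 was also called lower in Control than in WT retinas, on all 3 of its probes. Slc44a4, of the choline transporter-like family, fell by 0.34 (adjusted p = 0.0164) and was detected on 1 of 9 Ins2Akita arrays and 5 of 8 WT arrays. Its change in Control minus WT was -0.25 (adjusted p = 0.0572) with the same tissue scores added to the fit. Slc22a7, an organic anion transporter, fell by 0.25 (adjusted p = 0.0444). Slc22a21, a carnitine transporter, was detected on 7 of 9 Ins2Akita arrays and 0 of 8 WT arrays, and was at least 1.04-fold higher in Ins2Akita retinas (adjusted p = 0.0315), with the weakest signal called present on each WT array standing in for its level. Slc35c2, a Golgi protein of the nucleotide sugar family, fell by 0.28 (SE 0.07, adjusted p = 0.0183) on 1 of its 3 probes, and the others gave -0.16 and -0.17 without passing. Of the 22 genes of the Slc35 family, 0 passed on the brightest probe, as did 0 of 22 metal ion carriers.

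**Figure D2:**
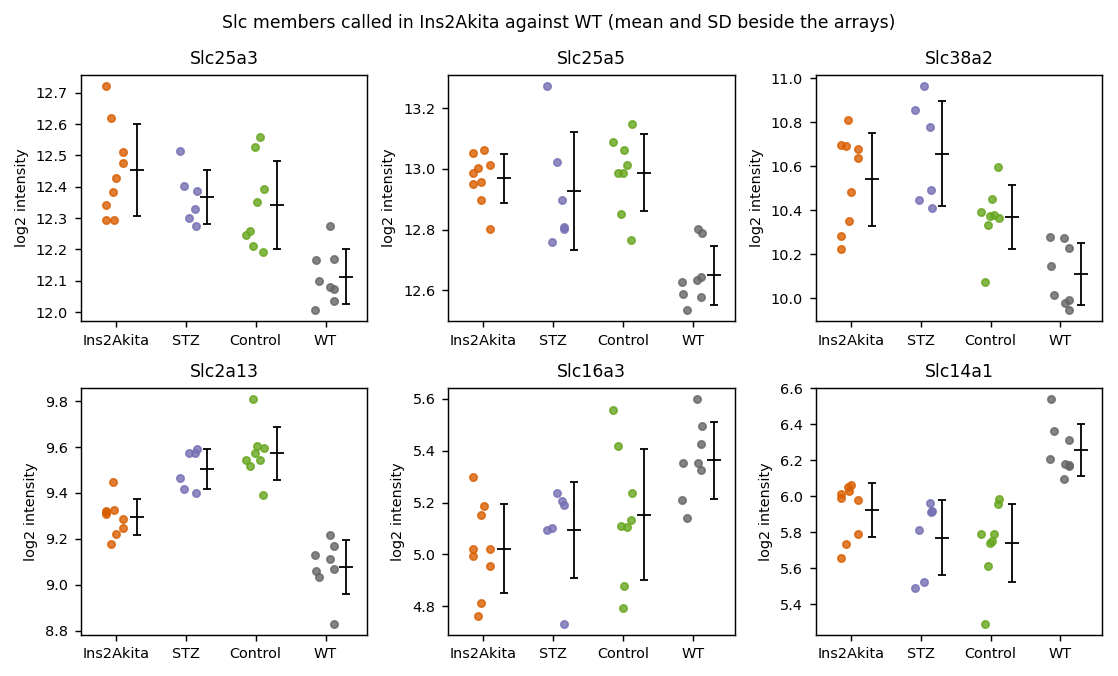
Log2 intensity of 6 called genes on every array (y axis) in Ins2Akita, STZ, Control and WT retinas (x axis), for the probe of each gene with the smallest p; the bar beside each group of points is its mean and SD. Ins2Akita arrays of Slc25a3 (12.29 to 12.72) lie above all WT arrays and those of Slc14a1 (5.66 to 6.06) below them. Control arrays also differ from WT arrays in Slc25a3, Slc25a5, Slc2a13 and Slc14a1. For Slc38a2 the change in Control minus WT was 0.26 (adjusted p = 0.0572) with scores of neighbouring eye tissues added to the fit. In Slc14a1 all Control arrays (5.29 to 5.98) lie below all WT arrays as well.

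Slc14a1 lost its call without WT replicate 1 or 6 or Ins2Akita replicate 1 or 4 (adjusted p 0.0503 to 0.0619), and Slc16a3 without WT replicate 2, 5 or 6 or Ins2Akita replicate 2, 4, 7 or 8 (0.0508 to 0.0693) and with the neighbouring tissue scores in the fit (0.0755). Slc22a21 lost it without WT replicate 2, 3, 4 or 6 or Ins2Akita replicate 1, 2, 4 or 8, and Slc22a7 without WT replicate 1, 4, 5, 6, 7 or 8 or Ins2Akita replicate 3, 4, 5, 6, 8 or 9. With the BeadChip as a random block, only Slc25a3, Slc25a5 and Slc38a2 were called. The correlation within a chip used there (0.0316) rests on Ins2Akita replicate 9, the only array that shared a chip with another group. That setting therefore cannot measure an offset between the Ins2Akita and WT chips.

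STZ retinas were compared with Control retinas for the effect of chemically induced diabetes. No solute carrier was called: 0 of 293 probes passed, against 0.0358% of all probes (6 of 16743). At an unadjusted p under 0.05 there were 33 of 293 (11.3%), against 8.55% of all probes. The smallest p belonged to Slc5a8, the sodium-coupled transporter of lactate, pyruvate and short-chain fatty acids. Slc5a8 was at 8.07, 8.15 and 8.27 in STZ retinas, against 8.28, 8.51 and 8.69 in Control retinas. Every STZ array lay below every Control array. The groups did not overlap, in either direction, for 1 of the 293 probes (0.341%) and for 0.209% of all probes. The change was -0.35 (SE 0.08, 95% interval -0.50 to -0.19), and its adjusted p of 0.0671 missed the threshold. Without Control replicate 3 or STZ replicate 5 that p was 0.0455 and 0.0488, and over all alternatives it ran from 0.0397 to 0.234. In Ins2Akita minus WT, Slc5a8 changed by -0.15 (adjusted p = 0.202), and in Control minus WT it rose by 0.27 (adjusted p = 0.006), a call lost with median scaling (0.19, adjusted p = 0.0816). WT arrays were at 8.06, 8.21 and 8.59.

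Other genes with small p in their class did not pass either. Slc25a33, a mitochondrial carrier of pyrimidine nucleotides, was at 10.69, 10.77 and 11.03 in STZ retinas, against 10.94, 11.02 and 11.20 in Control retinas (change -0.24, adjusted p = 0.217). Slc8b1, the mitochondrial sodium calcium exchanger, changed by 0.23 (adjusted p = 0.323) and Slc48a1, a heme transporter, by 0.23 (adjusted p = 0.344). Slc39a1, a zinc importer, changed by -0.27 (adjusted p = 0.358). Slc38a2 changed by 0.29 on the probe called in Ins2Akita retinas (95% interval 0.08 to 0.49, adjusted p = 0.342). The intervals for the mitochondrial carriers called in Ins2Akita retinas were -0.12 to 0.17 for Slc25a3 and -0.21 to 0.09 for Slc25a5, whose estimates were 0.03 and -0.06. Slc2a3 changed by 0.18 (0.01 to 0.34, adjusted p = 0.557) and Slc6a6 by 0.11 (-0.01 to 0.24, adjusted p = 0.617). Class medians lay between -0.05 for sugar and polyol carriers and 0.03 for metal ion carriers, with 0.01 over the 222 genes.

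The largest differences of means in STZ minus Control belonged to genes with a wide spread between arrays of 1 group, and these were chosen after their values were seen, except Slc15a2. Slc26a4, which encodes the anion exchanger pendrin, was at 8.71, 9.47 and 10.40 in STZ retinas, against 5.42, 8.45 and 9.61 in Control retinas (difference 1.47, 95% interval 0.22 to 2.72, adjusted p = 0.47). Slc13a4, a sulfate transporter, was at 8.40, 9.03 and 9.94 in STZ retinas, against 5.64, 8.38 and 8.99 in Control retinas (difference 1.23, adjusted p = 0.433). The difference was 0.97 for the GABA and taurine transporter gene Slc6a13 (adjusted p = 0.43), 0.90 for the amino acid transporter gene Slc38a8 (adjusted p = 0.499) and 0.81 for the peptide transporter gene Slc15a2 (adjusted p = 0.368). The groups overlapped in each of these genes, and 2 Control arrays stood far below the others in Slc26a4 and Slc13a4.

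**Figure D3:**
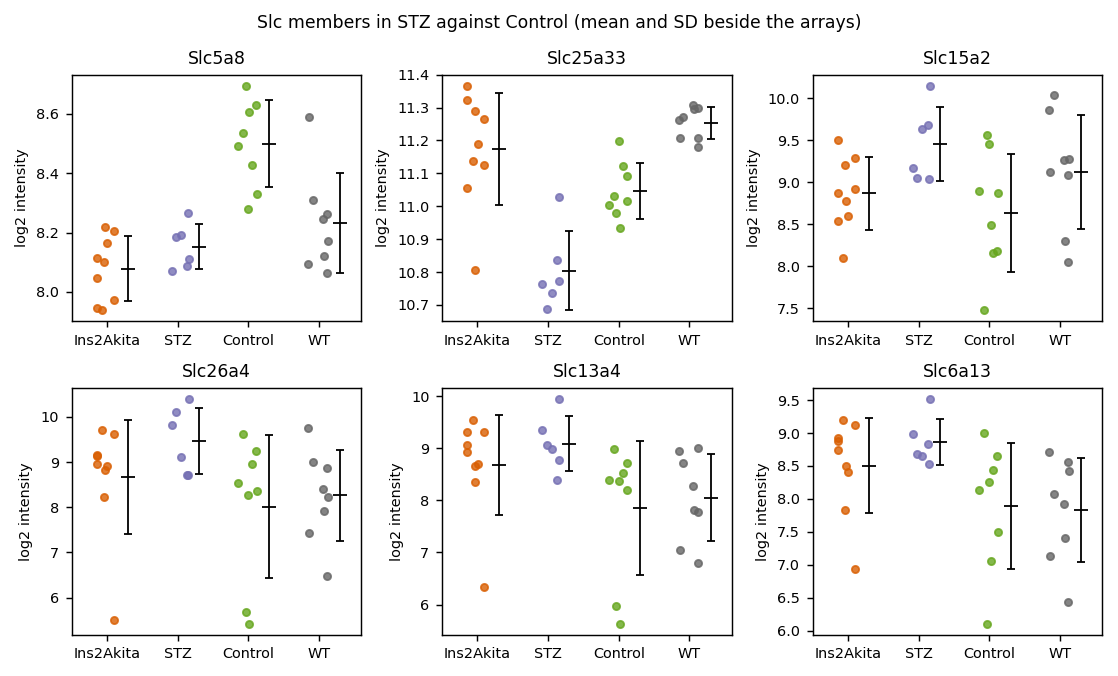
Log2 intensity of 6 genes on every array (y axis) in Ins2Akita, STZ, Control and WT retinas (x axis), with the mean and SD of each group beside its points. In Slc5a8 all 6 STZ arrays (8.07 to 8.27) lie below all 8 Control arrays (8.28 to 8.69); in Slc26a4 and Slc13a4 2 Control arrays lie below 6 while the STZ arrays start at 8.71 and 8.40.

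The difference between the diabetes changes, Ins2Akita minus WT minus the change in STZ minus Control, was tested in the same fit. It called 0 of 293 solute carrier probes, against 0.0179% of all probes (0.0119% higher and 0.00597% lower), and 25 of 293 (8.53%) at an unadjusted p under 0.05, against 8.65%. The smallest p belonged to Slc25a5, with a difference of 0.38 (SE 0.10, 95% interval 0.18 to 0.58, adjusted p = 0.162). Slc16a3 followed with -0.53 (adjusted p = 0.228) and Slc2a13 with 0.28 (adjusted p = 0.229). A change called in Ins2Akita retinas was therefore not shown to differ from that in STZ retinas for any carrier.

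Control and WT retinas are both from mice without diabetes, and more probes were called between them than between either diabetic group and its controls, except that with the series matrix values Ins2Akita minus WT had 62 called member probes and Control minus WT 57. Of the 293 probes 72 (24.6%) were called, against 22.2% of all probes, 45 higher (11.4% of all probes) and 27 lower (10.9%), and at an unadjusted p under 0.05 there were 103 (35.2%), against 34.4%. By single probes, the largest rises were those of the metal ion carriers Slc11a1 and Slc39a1. The largest falls were those of Slc37a3, Slc25a36 and Slc44a1. Other probes of Slc11a1 and Slc37a3 did not show the change. With median scaling in place of quantile normalization 65 probes were called, 28 higher and 37 lower, so that the balance of directions depends on the scaling. The groups did not overlap for 10 of 293 probes (3.41%), against 3.18% of all probes, and 8 called probes changed by more than 1.5-fold. This comparison and Ins2Akita minus WT share the 8 WT arrays.

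Metal ion carriers had 4 of 22 genes higher and 1 lower (22.7%), a share close to the 21.7% called among all genes on the brightest probe, and held the 2 largest rises. Slc11a1, a divalent metal transporter of phagosomes, was at 11.75, 12.01 and 12.21 in Control retinas, against 10.98, 11.18 and 11.42 in WT retinas, a change of 0.83 (SE 0.08, adjusted p = 1.53e-08). Its other 2 probes, detected on 6 and 25 arrays, gave -0.08 and 0.08. Slc11a1 on the called probe was at 11.74 to 12.45 in STZ retinas and at 10.93 to 11.34 in Ins2Akita retinas, so that STZ arrays lay with Control arrays and Ins2Akita arrays with WT arrays. Slc39a1, which brings zinc into the cell, was at 5.84, 6.13 and 6.29 in Control retinas, against 5.11, 5.33 and 5.66 in WT retinas (change 0.73, SE 0.09, adjusted p = 4.83e-07).

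Of 41 amino acid and peptide carriers 8 rose and 1 fell (22%), a share close to the 21.7% of all genes. Slc1a1 was at 9.15, 9.41 and 9.57 in Control retinas, against 8.70, 8.95 and 9.14 in WT retinas (change 0.46, SE 0.10, adjusted p = 0.000949). The second Slc1a1 probe did not pass (-0.17). The vesicular glutamate transporters Slc17a8, found in a class of amacrine cells, and Slc17a6, found in ganglion cells, rose by 0.37 (adjusted p = 0.00183) and 0.25 (adjusted p = 0.0114). Slc38a5, a glutamine transporter, rose by 0.44 (adjusted p = 0.00215), and the cationic amino acid transporter Slc7a3 by 0.36 (adjusted p = 0.000311). Slc7a5, the light chain of the large neutral amino acid transporter, fell by 0.25 (adjusted p = 0.0316), and its heavy chain Slc3a2 rose by 0.31 (adjusted p = 0.0331). Slc15a4, a lysosomal peptide and histidine transporter, fell by 0.69 (adjusted p = 2.57e-05) on 1 of its 2 probes, and its brightest probe gave -0.10.

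Inorganic ion carriers had 9 of 33 genes higher and 3 lower (36.4%, against 21.7% of all genes), with a median of 0.12 against 0.01 over all genes. The chloride importer Slc12a2 was at 10.15, 10.48 and 10.71 in Control retinas, against 9.86, 10.17 and 10.36 in WT retinas (change 0.34, adjusted p = 0.00914), and its other 2 probes gave 0.22 and 0.14 without passing. The neuronal chloride exporter Slc12a5 rose as well, by 0.32 (adjusted p = 0.0347), with 10.25, 10.45 and 10.84 in Control retinas against 9.82, 10.17 and 10.40 in WT retinas. The endosomal sodium proton exchanger Slc9a9 rose by 0.53 (adjusted p = 0.000222) and the phosphate transporter Slc20a1 by 0.32 (adjusted p = 0.0275). In Control retinas the sulfate transporter Slc26a2 was detected on 0 of 8 arrays, against 5 of 8 WT arrays, and its level was at least 1.15-fold lower (adjusted p = 0.00845).

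Sugar and polyol carriers had 3 of 12 genes higher and 1 lower (33.3%, against 21.7% of all genes). Slc2a13 was at 9.39, 9.56 and 9.81 in Control retinas, against 8.83, 9.09 and 9.22 in WT retinas, without overlap (change 0.49, SE 0.06, adjusted p = 2.75e-07). Slc5a3, the sodium-coupled myo-inositol transporter, rose by 0.55 (adjusted p = 0.0274) and was detected on 7 of 8 Control arrays and 1 of 8 WT arrays. The sugar efflux carrier Slc50a1 rose by 0.37 (adjusted p = 0.00257). Slc37a3 fell by 0.81 (SE 0.14, adjusted p = 0.000112) on 1 probe, and its brightest probe gave -0.07. Among monocarboxylate carriers Slc5a8 rose and Slc16a3 fell by 0.40 (adjusted p = 0.00628).

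Mitochondrial carriers went both ways, with 3 of 32 genes higher and 6 lower (28.1%, against 21.7% of all genes). Slc25a5 rose by 0.34 (adjusted p = 0.000445) and Slc25a3 by 0.23 and 0.30 on its probes (adjusted p = 0.0118 and 0.00195). Slc25a36, a pyrimidine nucleotide carrier, fell by 0.79 (SE 0.21, adjusted p = 0.00666), with 7.02, 8.07 and 8.35 in Control retinas against 7.77, 9.02 and 9.16 in WT retinas. Slc25a33, which carries the same substrates, fell by 0.21 (adjusted p = 0.0189). Slc25a11, the oxoglutarate carrier, which was singled out after its values were seen, was called higher on 1 probe (0.20) and lower on its brightest (-0.26). The 22 genes of the Slc35 family had 2 higher and 0 lower (9.09%). Slc35a1, the CMP-sialic acid transporter of the Golgi, fell by 0.69 (adjusted p = 3.25e-05) on a probe at 5.66, 5.83 and 6.13 in Control retinas, against 6.13, 6.68 and 6.86 in WT retinas, and its brightest probe gave 0.03. Among carriers of other substrates 8 of 48 rose and 7 fell (31.2%). The ascorbate transporter Slc23a2 was at 9.999, 10.26 and 10.39 in Control retinas, against 9.47, 9.78 and 9.98 in WT retinas (change 0.48, SE 0.08, adjusted p = 3.89e-05). Slc14a1 fell on all 3 of its probes, by 0.51, 0.32 and 0.29 (adjusted p = 0.000121, 0.0468 and 0.0181), and the choline transporter Slc44a1 by 0.72 and 0.26 on 2 of its 3 probes (adjusted p = 0.0014 and 0.0332).

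**Figure D4:**
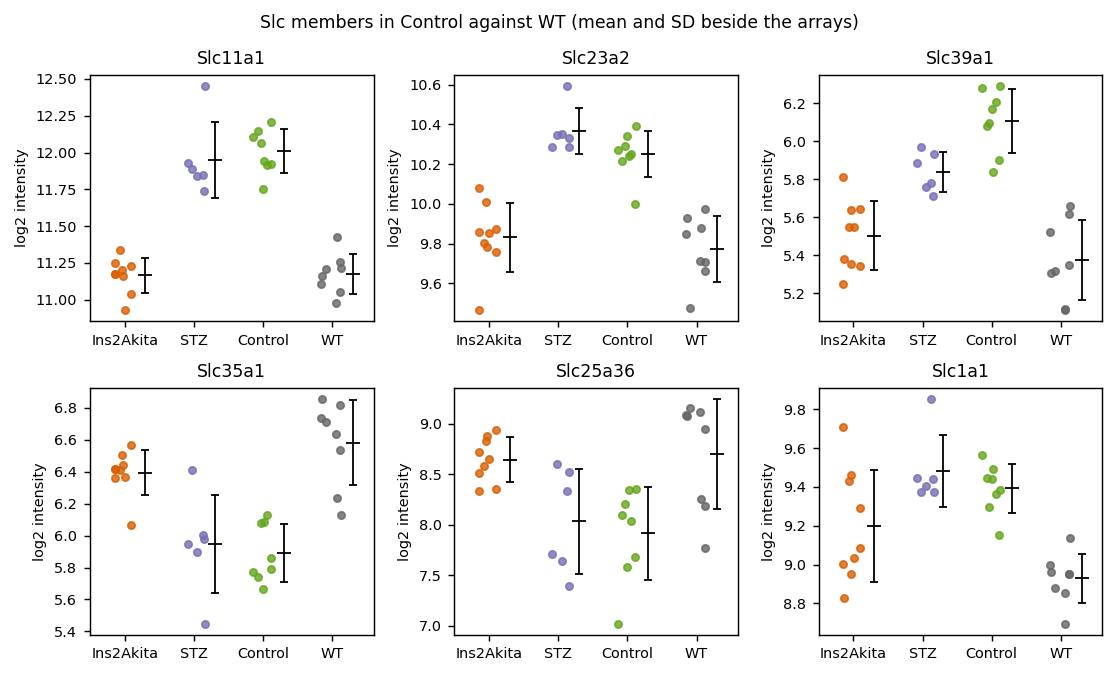
Log2 intensity of 6 genes on every array (y axis) in Ins2Akita, STZ, Control and WT retinas (x axis), for the probe with the smallest p in Control minus WT, with the mean and SD of each group beside its points. STZ arrays lie with Control arrays and Ins2Akita arrays with WT arrays in Slc11a1 (11.74 to 12.45 in STZ and 11.75 to 12.21 in Control retinas, against 10.93 to 11.34 in Ins2Akita and 10.98 to 11.42 in WT retinas), and Slc25a36 shows wide spreads in Control and WT retinas.

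The Ins2Akita array that shared the BeadChip of the STZ arrays was set against both groups. For Slc11a1 that array differed from the WT mean by 0.00 and from the STZ mean by -0.77, and for Slc25a36 by 0.02 and 0.69. For Slc39a1, by contrast, it differed from the WT mean by 0.44 and from the STZ mean by -0.03. Of the 11 probes called in Control minus WT with changes over 0.5, it lay nearer the mean of the other Ins2Akita arrays for 9 and nearer the STZ mean for 2. Over all 72 called probes the counts were 41 and 31, and over the other 221 they were 109 and 112. This is 1 array, and the part of the BeadChip in the differences cannot be told apart from that of the group.

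A list of 41 transporters with known functions in the retina had 33 genes with a kept probe. In Ins2Akita minus WT 2 of them rose (Slc25a3 and Slc25a5) and 1 fell (Slc16a3), against 4.37% of all genes called on the brightest probe, and the list's median was 0.02. In STZ minus Control 0 of 33 passed. In Control minus WT 13 rose and 3 fell (48.5%, against 21.7% of all genes), with a median of 0.14 against 0.01, and over the 222 solute carriers 38 rose and 20 fell (26.1%). The list was drawn up with results of these data known, so this count describes it only. Slc1a2, the main glial glutamate transporter did not pass in any comparison, with changes of -0.03, 0.04 and -0.09 in Ins2Akita minus WT, STZ minus Control and Control minus WT. Slc38a3, the glutamine transporter of Müller glia, changed by -0.15, -0.07 and -0.05 without passing.

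Probes of the same gene often disagreed. Of the 50 genes with several kept probes, all probes had the same sign for 22 in Ins2Akita minus WT, 31 in STZ minus Control and 27 in Control minus WT. In Control minus WT 25 of these genes had a called probe, 2 had all probes called, and 1 (Slc25a11) was called in both directions. Probe sequences were not used here, so which transcripts each probe reads was not tested.

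Most solute carriers varied little between arrays of a group, with a median SD of 0.199 on the log2 scale over the 293 probes and 0.196 over all probes. An SD over 0.5 was found for 11 probes (3.75%), against 2.84% of all probes, and these are named after their values were seen: Slc26a4 (1.22), Slc13a4 (0.97), Slc16a8 (0.95), Slc38a8 (0.76), Slc6a13 (0.76), 1 probe of Slc45a2 (0.58), Slc15a2 (0.58), Slc39a12 (0.57), Slc7a10 (0.57), 1 probe of Slc16a6 (0.55) and Slc27a2 (0.55). Several are known from the pigment epithelium or melanocytes, such as Slc16a8, the lactate transporter of the pigment epithelium, and Slc45a2, which acts in melanosomes. In the 5 arrays with the highest pigment epithelium score the mean of Slc16a8 was 7.77, against 5.76 in the 5 arrays with the lowest, and Slc26a4 averaged 9.70 against 7.49 and Slc6a13 9.00 against 7.10. Slc39a12, a zinc transporter, averaged 8.03 against 6.43. Slc15a2 did not move with the score, at 8.71 against 8.96.

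When the pigment epithelium, lens and cornea scores were added to the fit, the SD fell to 0.452 of its value for Slc39a12, 0.666 for Slc16a8 and 0.694 for Slc6a13, and was 1.02 of it for Slc15a2. For the 2 widest, Slc26a4 and Slc13a4, it was 0.803 and 0.854. It was 0.653 for the Slc45a2 probe, 0.705 for Slc7a10 and 0.755 for Slc38a8. For the Slc16a6 probe and Slc27a2 it was 1.03 each. The median ratio was 0.755 over these 11 probes and 1.01 over the other 282. In STZ minus Control the differences with the scores in the fit were 1.48 for Slc26a4 and 0.94 for Slc6a13 (adjusted p = 0.423 and 0.288). In Ins2Akita minus WT that of Slc16a8 was 0.18 with the scores (adjusted p = 0.818), against 0.72 without them. The value without the scores was the largest positive difference over the 222 genes, and neither value passed. The pigment epithelium score averaged 0.40 in Ins2Akita and -0.36 in WT retinas, and 0.21 in STZ and -0.25 in Control retinas, with SDs of 0.71 to 1.17.

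**Figure D5:**
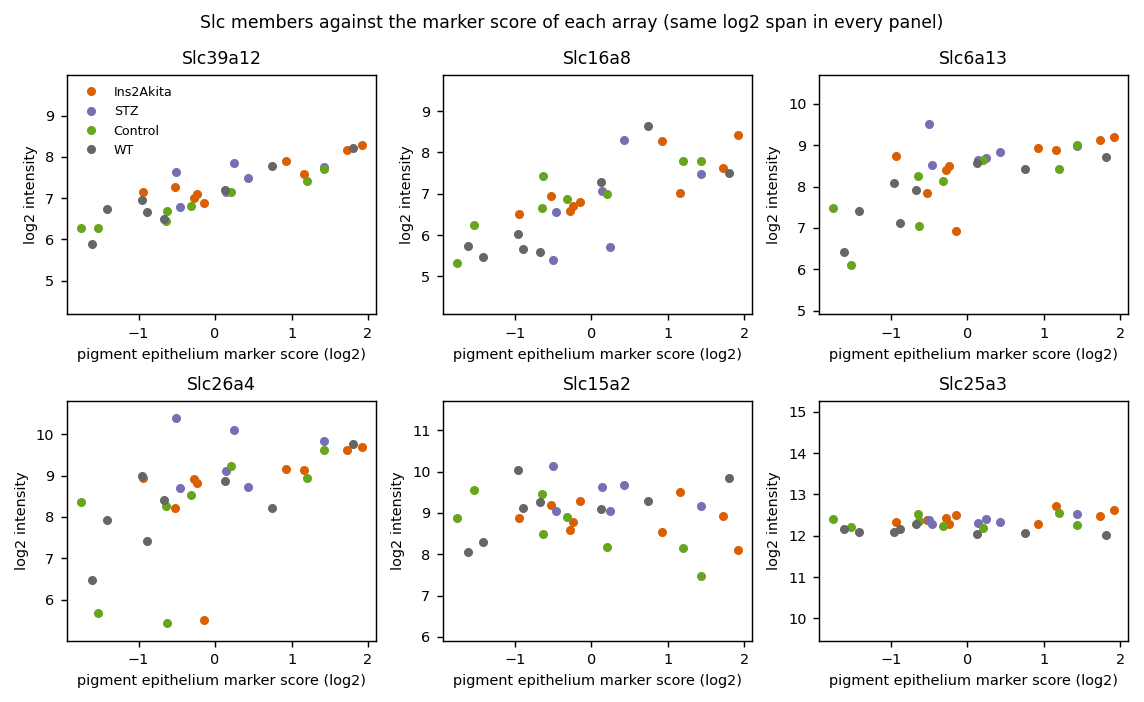
Log2 intensity of 6 genes (y axis, the same span in every panel) against the pigment epithelium and melanocyte marker score of the same array (x axis, log2), with arrays of Ins2Akita, STZ, Control and WT retinas in different colours. Slc39a12, Slc16a8 and Slc6a13 are higher on arrays with a higher score, Slc15a2 is not, and Slc25a3 stays within 12.01 to 12.72 over the whole range of scores.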

How the data were processed

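RNA of whole retinas (Trizol, RNeasy with DNase I) was labelled as biotinylated cRNA with the Ambion TotalPrep kit for the 31 arrays, per the labels' protocols. BeadStudio is named in the submitters' processing notes, with no version. The authors deposited a table of bead intensity and detection p-value per probe, headed as not normalized, whose mean was 351.836 on every array and whose lowest value was -22.7772, so that it had been background-subtracted and scaled in the deposited form. The deposited series matrix holds intensity on a linear scale, averages 403.64 per array and is a linear function of the first table on each array (largest residual 0.0106596). Array medians were 26.6 to 36.4 in the first table and 74.0 to 95.8 in the series matrix. The matrix is not centred per gene, a direction does not apply to 1-colour values, and it served as an alternative. Depth has no counterpart on these arrays, and the number of arrays limits the precision.

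Intensities were corrected and quantile normalized by the neqc function (limma 3.58.1, R 4.3.3, offset 16, log2 scale), and 16743 of 25697 probes with a detection p under 0.05 on at least 6 arrays were kept. Symbols came from the platform annotation (23978 probes with 1 symbol, 0 with several, 1719 not listed), updated through RefSeq. A linear model with 4 group means (lmFit, eBayes) gave Ins2Akita minus WT, STZ minus Control, Control minus WT and the difference of the diabetes changes, with Benjamini-Hochberg adjustment over all kept probes and 0.05 as the threshold. The pipeline was tested on simulated data. The members and lists were chosen with earlier results of these data known. Genes named are those called (up to 12 higher and 12 lower with the smallest p in each comparison), in each class the 3 brightest and the one with the smallest p in each comparison, and the retinal list. The substrate classes first left out family letters other than a (such as Slc35b), and the corrected rule is used. Same-numbered arrays had correlated deviations over 0.1 in 3 of 8 pairs of Ins2Akita and WT, 1 of 6 of STZ and Control and 4 of 8 of Control and WT, so the numbers were not taken to pair samples.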

Additional observations from a re-analysis of the deposited data

Results flagged for a closer look

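Among the 77 named genes, each tested on its brightest probe in 4 groups, 26 of 308 gene and group pairs (8.44%) had 1 array whose gap to its nearest neighbour was large against the range of the group by Dixon's test, where chance gives about 5%. All values are on the log2 scale.

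In Ins2Akita retinas, the arrays that stood apart were these. Slc19a1 was low on replicate 6, at 8.22 against 8.61 to 8.96 on the others. Slc29a1 was low on replicate 9, at 6.80 against 7.15 to 7.40 on the others. Slc44a1 was high on replicate 8, at 7.50 against 6.91 to 7.18 on the others. Slc5a6 was low on replicate 9, at 9.72 against 9.92 to 10.01 on the others.

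In STZ retinas, the arrays that stood apart were these. Slc11a1 was high on replicate 1, at 12.45 against 11.74 to 11.93 on the others. Slc17a8 was low on replicate 5, at 8.21 against 8.54 to 8.69 on the others. Slc1a1 was high on replicate 6, at 9.85 against 9.37 to 9.44 on the others. Slc1a7 was low on replicate 3, at 10.26 against 10.43 to 10.52 on the others. Slc23a2 was high on replicate 6, at 10.59 against 10.28 to 10.35 on the others. Slc25a25 was high on replicate 1, at 10.31 against 10.04 to 10.12 on the others. Slc38a2 was low on replicate 5, at 10.77 against 11.35 to 11.59 on the others.

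In Control retinas, the arrays that stood apart were these. Slc12a2 was low on replicate 1, at 10.15 against 10.45 to 10.71 on the others. Slc12a5 was high on replicate 8, at 10.84 against 10.25 to 10.48 on the others. Slc23a2 was low on replicate 1, at 9.999 against 10.22 to 10.39 on the others. Slc35e3 was low on replicate 8, at 8.68 against 8.97 to 9.20 on the others. Slc46a3 was high on replicate 7, at 10.39 against 9.97 to 10.16 on the others. Slc6a6 was low on replicate 2, at 13.85 against 14.001 to 14.13 on the others.

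In WT retinas, the arrays that stood apart were these. Slc20a1 was low on replicate 7, at 8.16 against 8.49 to 8.77 on the others. Slc38a5 was low on replicate 5, at 4.74 against 5.09 to 5.27 on the others. Slc39a6 was high on replicate 8, at 10.56 against 9.96 to 10.14 on the others. Slc40a1 was low on replicate 5, at 7.15 against 7.43 to 7.61 on the others. Slc46a3 was high on replicate 8, at 10.41 against 10.13 to 10.25 on the others. Slc4a4 was high on replicate 1, at 5.58 against 4.76 to 5.14 on the others. Slc5a6 was high on replicate 1, at 10.16 against 9.86 to 9.99 on the others. Slc5a8 was high on replicate 1, at 8.59 against 8.06 to 8.31 on the others. Slc9a3r2 was low on replicate 7, at 7.44 against 7.67 to 7.82 on the others.

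The pairs spread over arrays, with 3 on WT replicate 1 and at most 2 on any other array. Of the genes called in Ins2Akita minus WT, Slc38a2 was among them, in STZ retinas and on its brightest probe, which was not the probe called. Slc5a8 stood apart in WT retinas, and not in STZ or Control retinas.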

How the results depend on the processing

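In Ins2Akita minus WT, where 13 probes of solute carriers were called, the count was 3 with the BeadChip as a random block, 8 among probes detected on all arrays (216 tested), and 62 with the series matrix values (7 higher and 55 lower, with 23.6% of all probes called and a median of -0.086 over all probes, against 6 higher and 7 lower). It ran from 8 (without WT replicate 6 or Ins2Akita replicate 4) to 14 (without WT replicate 3 or 7) over the arrays left out in turn. In STZ minus Control the count was 1 with array weights (Slc5a8, adjusted p = 0.0397), and 0 to 1 over the arrays left out (1 without Control replicate 3 or STZ replicate 5), with 0 in the other alternatives run. In Control minus WT, with 72 called, it was 43 with the BeadChip as a random block, 57 with the series matrix values, and 58 (without WT replicate 7) to 75 (without WT replicate 5) over the arrays left out. With median scaling it was 65, 28 higher and 37 lower against 45 and 27, and over all probes the share of calls that were higher was 31.6% against 51.1%. For the difference of the diabetes changes it was 0 in the alternatives run. With the replicate number as a block the counts were 14, 0 and 77, of which 11 and 71 were among the 13 and 72. Slc25a3, Slc25a5 and Slc38a2 kept their call in Ins2Akita minus WT in all 28 alternatives, none of which separates chip from group. The other genes called there lost it with the BeadChip as a random block, Slc2a13 (adjusted p = 0.146), Slc22a21 and Slc22a7 also with median scaling, Slc22a21, Slc16a3 and Slc22a7 with the neighbouring tissue scores (9 calls), and Slc2a13, Slc25a30, Slc22a21 and Slc22a7 with only the groups of the comparison (9 calls). Slc22a21 and Slc22a7 lost it with an offset of 50, Slc22a7 also with the replicate block and array weights, and Slc25a30 with the series matrix values. Slc22a21 was -0.0385 (adjusted p = 0.662) with the series matrix values, against 0.31, and the cause was not tested. The median of the Slc35 family in Ins2Akita minus WT was 0.01 under the class rule as first written, an alternative chosen after seeing the data, against -0.04. Probes near background carry the least precise changes.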
